A study of Mus musculus with 8 samples.

Results

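The interaction of line and withdrawal was computed in mouse embryonic stem cells (ESCs) that depend on a replaceable WDR5. For each gene, the change on doxycycline withdrawal in the WT line was subtracted from the change on withdrawal in the F266A line. All 8 arrays of the series entered, 2 in each of 4 groups, and 11940 genes were tested, of 18193 with a probe set that carries exactly 1 gene symbol. A gene was a member of the comparison when at least 1 of its probe sets exceeded 50 on the linear scale (5.64 on the log2 scale) on at least 1 array. Measured values did not otherwise choose the genes tested. The gene lists described below, by contrast, were chosen with earlier results of these data known.

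The cells were V6.5 ESCs kept with LIF, infected with a lentivirus and sorted for GFP. All 4 groups carried a constitutive shRNA against the mouse Wdr5 mRNA and a human WDR5 cassette that doxycycline switches on. The cassette held wild-type WDR5 (WT) or F266A, a point mutant of the surface where WDR5 holds RNA. WT +dox and F266A +dox cells were grown with doxycycline at 2 µg/mL, and WT −dox and F266A −dox cells without it. Per the methods, cells for RNA work were collected 6 days after plating with doxycycline or without it. Arrays of a group are described as biological duplicates. The study names a single WT and a single F266A line, so the interaction compares these particular lines, and no group had its own Wdr5 mRNA left untouched.

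WDR5 is a propeller-shaped adaptor shared by the MLL and SET1 complexes, which methylate histone H3 at lysine 4 near the starts of active genes, and ESCs need it to renew themselves. An interaction asks whether withdrawal did the same in both lines. An interaction below 0 means that the F266A line changed less upward, or more downward, than the WT line. One above 0 means the opposite. It is a difference of differences and does not say by itself which group moved.

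Wdr5 itself came first. Its probe sets gave log2 levels of 8.35 and 8.32 with and 9.45 and 9.35 without doxycycline in WT, against 8.59 and 8.56 with and 9.31 and 9.27 without it in F266A. Both −dox groups lay above both +dox groups, with no overlap. Wdr5 rose by 1.06 ± 0.07 (log2 change ± SE, n = 2 against 2) in the WT line and by 0.71 ± 0.07 in the F266A line, and the interaction of −0.35 ± 0.09 was not called (adjusted p = 0.0694). The array was designed on mouse sequence, and how much of the human transcript it detects was not tested, so these values check neither the switch nor the knockdown. Of the defining markers, all 5 of ESCs (Pou5f1, Nanog, Sox2, Esrrb and Zfp42) exceeded the minimum on every array, while none of 7 fibroblast markers did on any. The 18S ribosomal RNA control (middle probe set) ranged from 9.57 to 11.42 (log2 level) and had an interaction of −0.64. The 3′ minus 5′ difference of Gapdh had an interaction of 0.01 and that of Actb one of 0.05. The part of 18S signal in the results was not tested.

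The withdrawal response differed between the lines for 615 genes at an adjusted p under 0.05 (limma), 5.15% of those tested. Of these, 264 (2.21%) were higher and 351 (2.94%) lower in F266A than in WT, and 28 (0.235%) and 33 (0.276%) reached 2-fold. The leading genes below 0 were A2m, Spink1 and the oxygen sensor Egln3, and those above 0 were Nupr1, B4galnt2 and Dsc2. Withdrawal itself was called for 3763 genes in the WT line (31.5%; 16.1% rose and 15.4% fell) and 2333 in the F266A line (19.5%; 8.94% rose and 10.6% fell). In these bulk arrays, fewer cells of a type and less RNA per cell cannot be told apart. The 4 differences between single arrays of one line did not overlap those of the other for any of the 615, against 37.1% of all genes (17.1% higher and 20.1% lower in F266A). The calls rest on the same arrays, so this separation is not separate evidence for them. Without 1 array the number of calls was 688 (F266A −dox replicate 1 left out) or between 174 (F266A +dox replicate 1) and 379 (WT +dox replicate 2), and 143 genes kept their call throughout. A SAM-type statistic called none, with 247 genes at an unadjusted p under 0.05. It adds a constant to each standard error, which enlarges every p-value, so its lack of calls does not stand for the SAM test of the study.

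**Figure D1:**
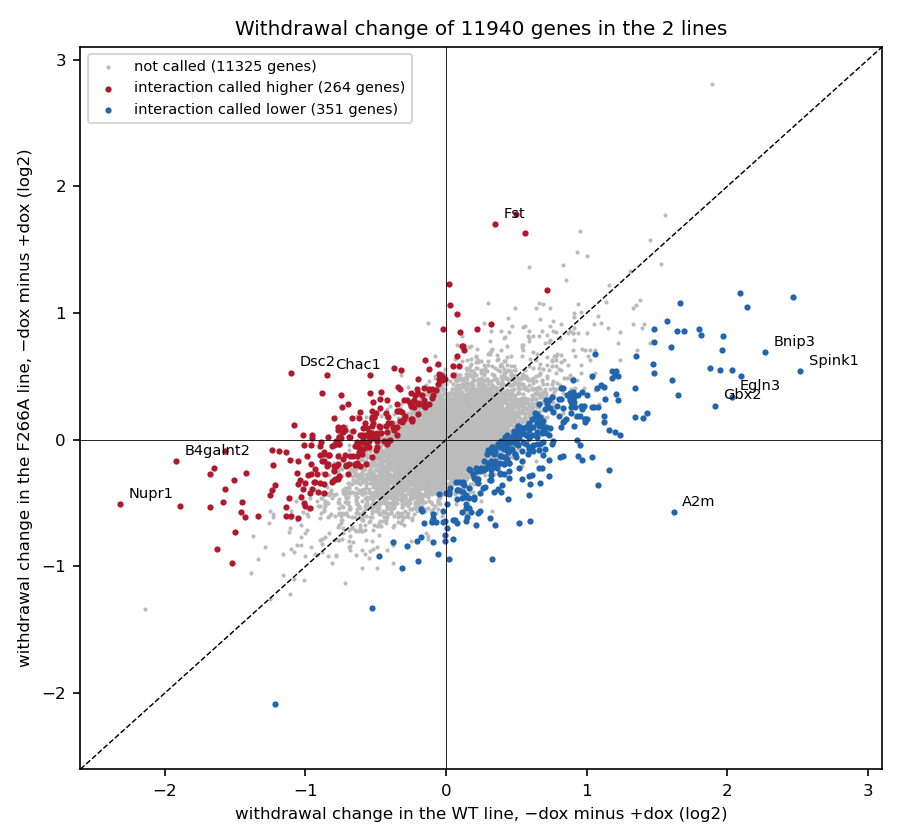
Withdrawal change in the WT line (x axis, log2) against that in the F266A line (y axis, log2) for the 11940 genes; the dashed line marks equal change. Red points (264) lie above it and blue points (351) below it as called interactions. A2m sits at 1.62 and −0.57, Nupr1 at −2.32 and −0.51, and Fst at 0.35 and 1.70.

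Both withdrawals, which share no array, had a Pearson r of 0.62 across the 11940 genes. This is a description across genes, which are not independent replicates. They called 643 genes higher in both (33.4% of the WT and 60.3% of the F266A calls) and 752 lower in both (40.9% and 59.4%). The interaction was most often a smaller response in F266A. Of the 615 genes, 468 (76.1%) had a smaller absolute change in F266A than in WT, against 57.4% of all genes. Genes that rose in WT and had a lower interaction numbered 277 (45%), and genes that fell in WT and had a higher one 210 (34.1%). Another 118 (19.2%) were called on withdrawal in F266A and not in WT, of which 50 rose and 68 fell. Among all 11940 genes, 409 rose and 490 fell in this way. The withdrawals share their arrays with the interaction, so these counts say what it is made of and are not separate evidence.

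The same genes were placed by which group stood apart, meaning that both contrasts with that group were called and both without it were not. WT +dox stood apart for 178 of the 615 (28.9%), WT −dox for 78 (12.7%), F266A −dox for 77 (12.5%) and F266A +dox for 13 (2.1%). The other 269 (43.7%) fell into no such pattern. Over all 11940 genes, with or without a called interaction, the same pattern held for 883 genes in WT +dox, 267 in WT −dox, 413 in F266A −dox and 47 in F266A +dox. WT +dox thus made up 51.4% of the 346 called genes with a single group apart and 54.8% of all 1610 such genes, and nothing particular to the called interactions is read from its count. Genes of each kind follow. Fgg, Crmp1 and Ptgs2, given among them for a similar shape, had a further contrast called and belong to the 269. Cpe belongs there too and has another shape, with WT +dox highest, WT −dox lowest and the F266A groups between them. Akr1b8, Rgcc, Urah, Mcoln3 and Ptp4a3 were chosen as examples after their values were seen.

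**Figure D2:**
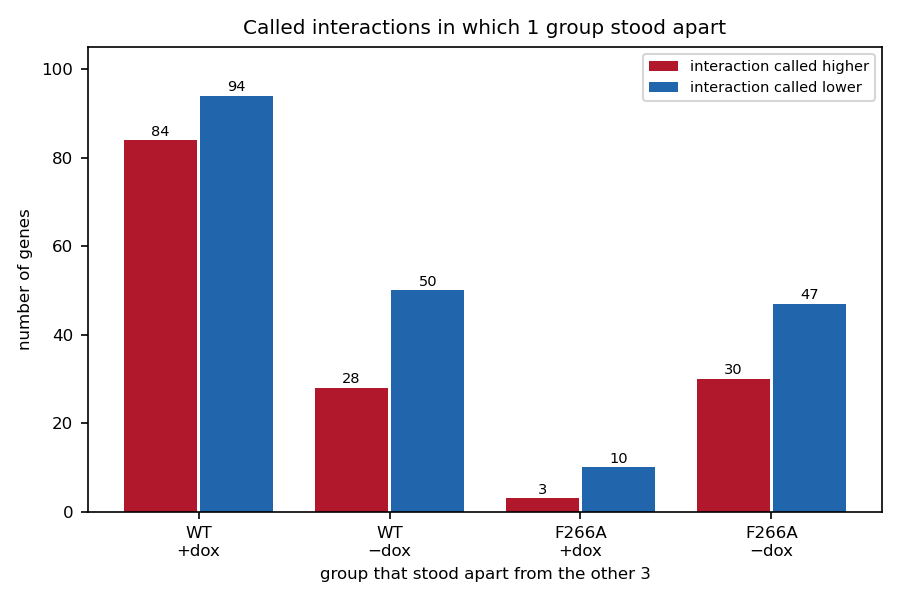
Number of called interactions (y axis, genes) in which 1 of the 4 groups (x axis) stood apart from the other 3, higher in red and lower in blue. WT +dox holds 84 and 94 genes, WT −dox 28 and 50, F266A +dox 3 and 10, and F266A −dox 30 and 47.

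WT +dox cells were the high group for B4galnt2, a glycosyltransferase. Its log2 level was 7.77 and 7.53 with and 5.84 and 5.63 without doxycycline in WT, against 5.82 and 5.91 with and 5.51 and 5.88 without it in F266A. The last 3 groups overlapped each other near the minimum, and the interaction was 1.75 ± 0.18 (adjusted p = 0.00184). Calb2, which encodes the calcium buffer calretinin, had the same shape, with 8.01 and 7.82 in WT +dox and 6.10 to 6.40 on the other 6 arrays (interaction 1.49 ± 0.15, adjusted p = 0.00127). Fgg, a fibrinogen chain, was at 6.53 and 6.69 in WT +dox and between 4.61 and 4.99 elsewhere, under the minimum in those 3 groups (1.44 ± 0.14, adjusted p = 0.00113). Rgcc, a regulator of the cell cycle, was at 6.53 and 6.41 against 4.99 to 5.32, again under the minimum in 3 groups (1.16 ± 0.13, adjusted p = 0.00276).

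The mirror image, a low WT +dox group, was seen for Setd1b, Akr1b8 and Crmp1. Setd1b encodes the catalytic subunit of a SET1 complex that contains WDR5. Its level was 7.11 and 7.45 with and 8.48 and 8.41 without doxycycline in WT, against 8.23 and 8.20 with and 8.39 and 8.21 without it in F266A. Both WT +dox arrays lay below the other 6, and the interaction was −1.08 ± 0.15 (adjusted p = 0.00707). Akr1b8, an aldo-keto reductase, was at 6.62 and 6.90 in WT +dox and between 7.90 and 8.28 elsewhere (−1.16 ± 0.17, adjusted p = 0.00723). For Crmp1, which acts in axon guidance, WT +dox arrays were at 6.77 and 6.83 and the others between 8.32 and 9.09 (−1.48 ± 0.14, adjusted p = 0.00114), with a further rise in F266A of 0.55 ± 0.10. Enox1, an electron transfer protein of the cell surface, was at 4.88 and 5.21 in WT +dox, under the minimum, and between 6.64 and 7.47 elsewhere (−1.60 ± 0.24, adjusted p = 0.00776).

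WT −dox cells were the group apart for Urah, an enzyme of urate breakdown, which had log2 levels of 10.59 and 10.69 there and 9.74 to 10.10 on the other 6 arrays. Its interaction was −0.88 ± 0.12 (adjusted p = 0.00656). Mcoln3, a cation channel of endosomes, was low in the same group, at 5.57 and 5.50 against 5.94 to 6.35 (0.98 ± 0.13, adjusted p = 0.0051), with that group's mean under the minimum. Cpe, a carboxypeptidase that processes peptide hormones, was highest in WT +dox (10.03 and 10.16) and lowest in WT −dox (8.34 and 8.49). Its F266A arrays lay in between, at 9.26 and 9.20 with doxycycline and 8.88 and 9.05 without, for an interaction of 1.41 ± 0.12 (adjusted p = 0.000936).

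F266A −dox cells were the high group for Fst, which encodes follistatin, a secreted inhibitor of activin. Fst was at 5.54 and 6.01 with and 6.07 and 6.17 without doxycycline in WT, against 6.09 and 6.07 with and 7.71 and 7.85 without it in F266A. It rose by 1.70 ± 0.13 on withdrawal in F266A, the WT change of 0.35 ± 0.13 was not called, and the interaction was 1.36 ± 0.18 (adjusted p = 0.00605). Ptgs2, the inducible cyclooxygenase, was at 6.30 and 6.16 in F266A −dox and between 4.34 and 5.06 elsewhere, under the minimum (1.21 ± 0.13, adjusted p = 0.00185). F266A +dox cells stood apart for Ptp4a3, a membrane-bound phosphatase, at 9.60 and 9.42 against 8.85 to 8.95 on the other 6 arrays (−0.70 ± 0.11, adjusted p = 0.00911).

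**Figure D3:**
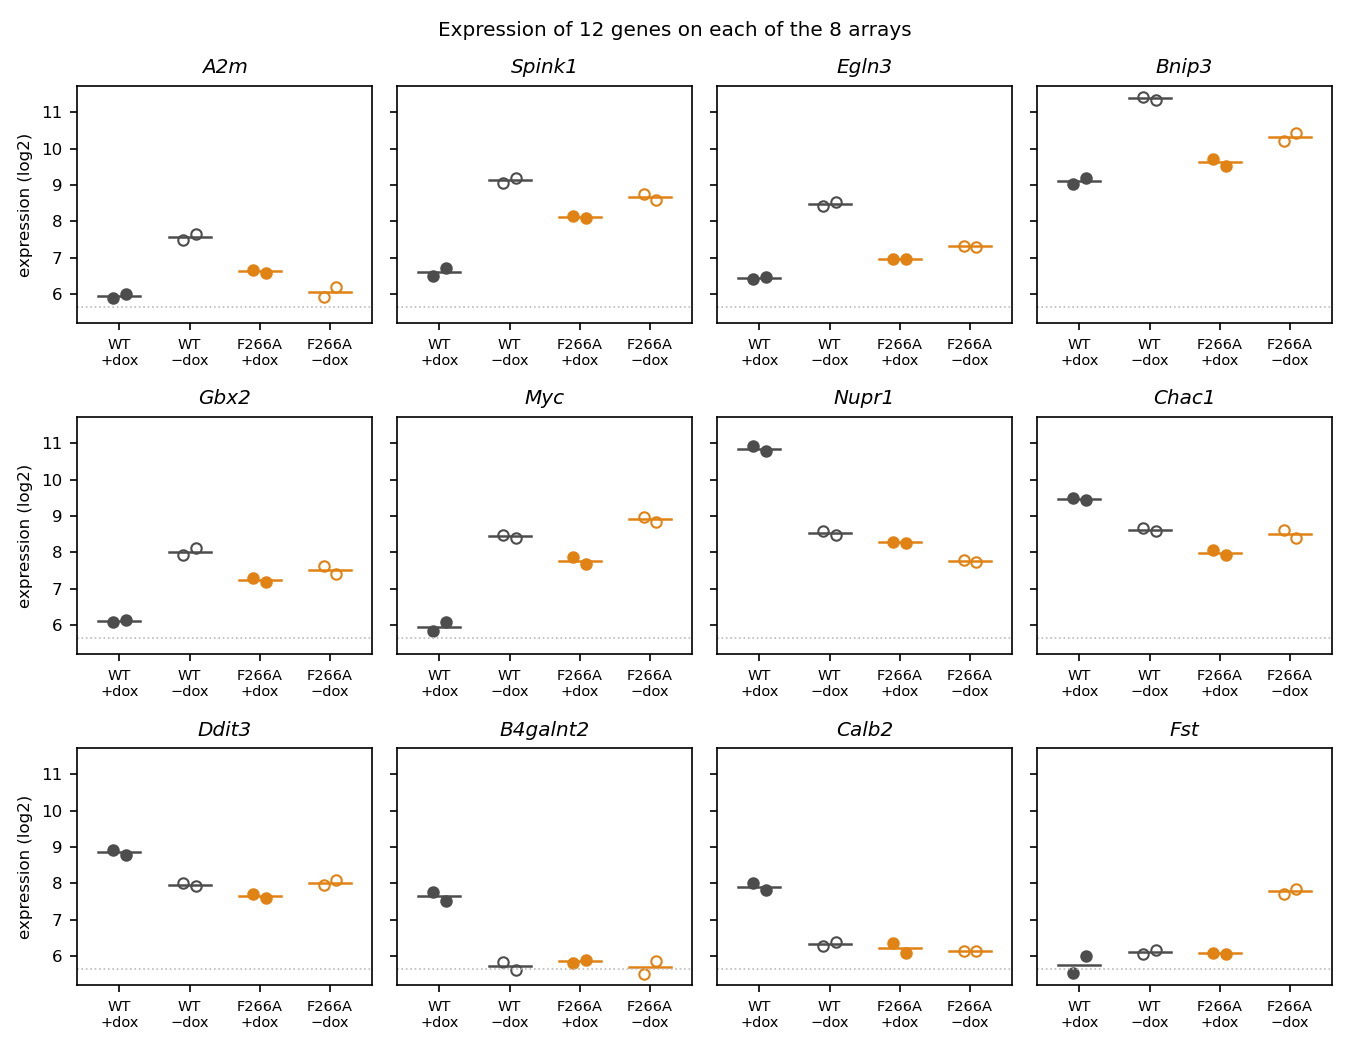
Expression (y axis, log2) of 12 genes on each of the 8 arrays, by group (x axis); points are arrays, short lines group means of 2 and the dotted line the minimum of 5.64. In B4galnt2 and Calb2 the WT +dox arrays lie above the other 6, in Fst the F266A −dox arrays do, and in A2m the lines move in opposite directions.

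Withdrawal was called in opposite directions in the lines for 39 of the 11940 genes, of which 24 rose in WT and fell in F266A and 15 did the reverse. All 39 were among the 615 (6.34%). The interaction is made of the same changes, so its call in all of them is not separate evidence. A2m, which encodes a secreted protease inhibitor, had the lowest interaction of the called genes. Its log2 level was 5.90 and 6.0 with and 7.50 and 7.65 without doxycycline in WT, against 6.68 and 6.59 with and 5.94 and 6.20 without it in F266A. It rose by 1.62 ± 0.10 in WT and fell by 0.57 ± 0.10 in F266A, an interaction of −2.19 ± 0.14 (4.56-fold, adjusted p = 0.000189). Porcn, the acyltransferase that prepares WNT ligands for secretion, moved from 7.66 and 7.65 to 8.81 and 8.81 in WT and from 8.52 and 8.47 to 8.29 and 8.22 in F266A (−1.39 ± 0.09, adjusted p = 0.000189). Neurod1, a neurogenic transcription factor, went from 6.87 and 7.0 to 7.91 and 8.11 in WT and from 8.35 and 8.23 to 8.06 and 7.81 in F266A (−1.43 ± 0.15, adjusted p = 0.0016). For all 3 genes, F266A +dox started above WT +dox.

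In the other direction, Dsc2, which encodes the desmosomal cadherin desmocollin, fell from 7.02 and 7.0 to 5.86 and 5.96 in WT and rose from 7.32 and 7.30 to 7.62 and 8.06 in F266A. Its interaction was 1.63 ± 0.17 (adjusted p = 0.00185). The light chain of MHC class I, B2m, went from 8.97 and 8.95 to 8.08 and 8.34 in WT and from 9.18 and 9.15 to 9.38 and 9.63 in F266A (1.10 ± 0.15, adjusted p = 0.00545). Chac1, Ddit3, Mthfd2 and Herpud1 were of the same kind and belong to the stress response described next.

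The integrated stress response is the programme by which cells short of amino acids or burdened with unfolded protein slow general translation and, through the factor ATF4, raise genes for amino acid synthesis and uptake. Of its 32 tested genes, 15 had a higher interaction and none a lower one, against 2.21% and 2.94% of all genes. Their median interaction was 0.37, against −0.01 over all genes, with 30 values above 0. On withdrawal, 23 of the 32 fell in WT and 2 rose, against 15.4% and 16.1% of all genes. In F266A 3 fell and 8 rose, against 10.6% and 8.94%. Median changes were −0.36 and 0.10. When 1 array was left out, between 8 (without F266A +dox replicate 2) and 14 members were called higher, and 8 genes kept their call throughout, namely Nupr1, Chac1, Ddit3, Mthfd2, Herpud1, Gpt2, Slc1a4 and Cebpb. The other tested genes had interactions between −0.40 (Slc7a3) and 0.80 (Trib3).

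Nupr1, a stress-induced chromatin protein, had the highest interaction of all called genes. Its log2 level was 10.91 and 10.79 with and 8.58 and 8.48 without doxycycline in WT, against 8.30 and 8.26 with and 7.79 and 7.75 without it in F266A. WT +dox stood more than 2 log2 units above the rest, the fall was 2.32 ± 0.07 in WT and 0.51 ± 0.07 in F266A, and the interaction was 1.81 ± 0.10 (adjusted p = 0.000105). Chac1, which degrades glutathione, was at 9.49 and 9.45 with and 8.66 and 8.59 without doxycycline in WT, against 8.07 and 7.92 with and 8.62 and 8.39 without it in F266A. It fell by 0.85 ± 0.09 in WT and rose by 0.51 ± 0.09 in F266A (interaction 1.36 ± 0.13, adjusted p = 0.00113), so that the −dox groups of the lines overlapped while the +dox groups lay 1.48 apart. Ddit3, which encodes the transcription factor CHOP, went from 8.93 and 8.78 to 8.0 and 7.94 in WT and from 7.72 and 7.60 to 7.95 and 8.10 in F266A (1.25 ± 0.12, adjusted p = 0.00113).

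The mitochondrial folate enzyme Mthfd2 had log2 levels of 9.90 and 9.87 with and 9.35 and 9.33 without doxycycline in WT, against 9.42 and 9.17 with and 9.88 and 9.74 without it in F266A, with an interaction of 1.06 ± 0.13 (adjusted p = 0.00373). Herpud1, a component of ER-associated degradation, moved from 8.08 and 7.95 to 7.69 and 7.60 in WT and from 7.37 and 7.27 to 8.0 and 7.79 in F266A (0.95 ± 0.13, adjusted p = 0.00547). Both fell in WT and rose in F266A. Gpt2, an alanine aminotransferase, fell by 0.90 in WT, was not called in F266A (−0.05) and had an interaction of 0.84 ± 0.11. Slc1a4, a transporter of neutral amino acids, had an interaction of 0.69 ± 0.11 and Cebpb, a transcription factor, one of 0.64 ± 0.10. Asns, the asparagine synthetase, was not called, with an interaction of 0.24 ± 0.09 and falls in both lines (−0.52 and −0.28).

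Atf4 itself had log2 levels of 11.16 and 11.22 with and 10.88 and 10.80 without doxycycline in WT, against 10.59 and 10.56 with and 10.90 and 10.71 without it in F266A. F266A +dox lay below all other groups. The interaction was 0.57 ± 0.11 (adjusted p = 0.023) and lay between 0.48 and 0.67 when 1 array was left out. Its call ended without either WT +dox array, WT −dox replicate 2 or either F266A +dox array, with adjusted p up to 0.0852. Of 20 ER chaperone genes, none was called by limma, against 5.15% of all genes. An unadjusted p under 0.05 was found for 4 of them, against 2536 of all 11940 genes. Of 19 aminoacyl-tRNA synthetase genes, 1 was called, the alanine enzyme's gene Aars (0.49 ± 0.12, adjusted p = 0.0454), and its call held only without WT +dox replicate 2 among the fits with 1 array left out (adjusted p up to 0.133).

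The letters TGATGNAA, the C/EBP-ATF response element through which ATF4 binds DNA, were searched on both strands of the 250 bases before the start in RefSeq (GRCm38.p6). They were found at 4 of the 15 called genes of the list (26.7%), all of which matched an entry, at 3 of 13 matched genes that were not called (23.1%) and at 2.34% of the 9640 tested genes with an entry. The windows of Nupr1 and Chac1 are shown, 5′ to 3′ on the gene's strand, because they are the leading stress genes and both hold a match, which stands in capitals as its reverse complement. That of Nupr1 covers chr7:126625471-126625720 (minus strand), with the match beginning at position −110 from the start. That of Chac1 covers chr2:119350992-119351241 (plus strand), with the match at position −193.
Nupr1: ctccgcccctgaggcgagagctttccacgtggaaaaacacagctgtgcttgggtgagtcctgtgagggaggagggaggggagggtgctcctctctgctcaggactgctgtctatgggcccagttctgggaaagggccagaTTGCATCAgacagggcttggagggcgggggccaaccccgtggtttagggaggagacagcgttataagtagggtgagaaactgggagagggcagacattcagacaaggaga
Chac1: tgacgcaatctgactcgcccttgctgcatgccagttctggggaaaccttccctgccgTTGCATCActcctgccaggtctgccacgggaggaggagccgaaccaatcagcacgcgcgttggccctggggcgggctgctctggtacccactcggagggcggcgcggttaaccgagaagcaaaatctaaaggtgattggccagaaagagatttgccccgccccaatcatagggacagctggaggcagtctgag
These matches describe the windows, and no binding was measured.

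Hypoxia-inducible factor (HIF) is the transcription factor that prolyl hydroxylases mark for destruction when oxygen is ample, and its targets include those hydroxylases, mitophagy genes and the glycolytic enzymes. Of 24 tested HIF targets outside glycolysis, 11 had a lower interaction and none a higher one, against 2.94% and 2.21% of all genes. Their median interaction was −0.34. In WT 15 rose and 2 fell on withdrawal (median change 0.30), against 16.1% and 15.4% of all genes. In F266A 9 rose and 2 fell (0.10), against 8.94% and 10.6%. Leaving out 1 array gave between 5 (without F266A +dox replicate 1) and 9 calls, and Egln3, Bnip3, Ankrd37, Ndrg1 and Egln1 kept theirs throughout. Genes of the same list that were not called included Vegfa, the angiogenic growth factor (0.20 ± 0.10), Adm, the vasodilator adrenomedullin (0.24 ± 0.13, all 4 group means under the minimum), and Hif1a, the factor's own regulated subunit (0.13 ± 0.10), whose 8 levels lay between 9.85 and 10.03.

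Egln3, a HIF prolyl hydroxylase, was at 6.41 and 6.47 with and 8.42 and 8.53 without doxycycline in WT, against 6.98 and 6.97 with and 7.34 and 7.30 without it in F266A (log2 levels). WT −dox was the highest group by about 1 log2 unit, the rise was 2.03 ± 0.07 in WT and 0.34 ± 0.07 in F266A, and the interaction was −1.69 ± 0.10 (adjusted p = 0.000105). Bnip3, a mitophagy receptor, was at 9.03 and 9.18 with and 11.42 and 11.33 without doxycycline in WT, against 9.71 and 9.53 with and 10.21 and 10.42 without it in F266A. It rose by 2.27 ± 0.10 and by 0.69 ± 0.10 (interaction −1.58 ± 0.14, adjusted p = 0.000833), and no group overlapped another. Ankrd37, an ankyrin repeat protein, moved from 5.77 and 5.69 to 7.73 and 7.62 in WT and from 6.68 and 6.58 to 7.08 and 7.27 in F266A (−1.40 ± 0.12, adjusted p = 0.000833). In Egln3, Bnip3 and Ankrd37, F266A +dox lay above WT +dox, and F266A −dox below WT −dox.

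Ndrg1, a stress-responsive gene of the cytoplasm, had an interaction of −0.71 ± 0.10 (adjusted p = 0.00692), with 3 of its 4 probe sets below 0, the lowest at −1.47, and the remaining 1 at 0.10. Egln1, the main HIF prolyl hydroxylase in many tissues, was at 7.28 and 7.25 with and 8.14 and 8.16 without doxycycline in WT, against 7.69 and 7.66 with and 7.88 and 8.0 without it in F266A (−0.62 ± 0.09, adjusted p = 0.00905). The plot of stress and hypoxia genes sets the withdrawals of each line side by side for all members. The stress genes of the WT line lie mostly left of 0 and its HIF targets mostly right of it, and in F266A no HIF target rose by more than Bnip3 (0.69 ± 0.10).

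**Figure D4:**
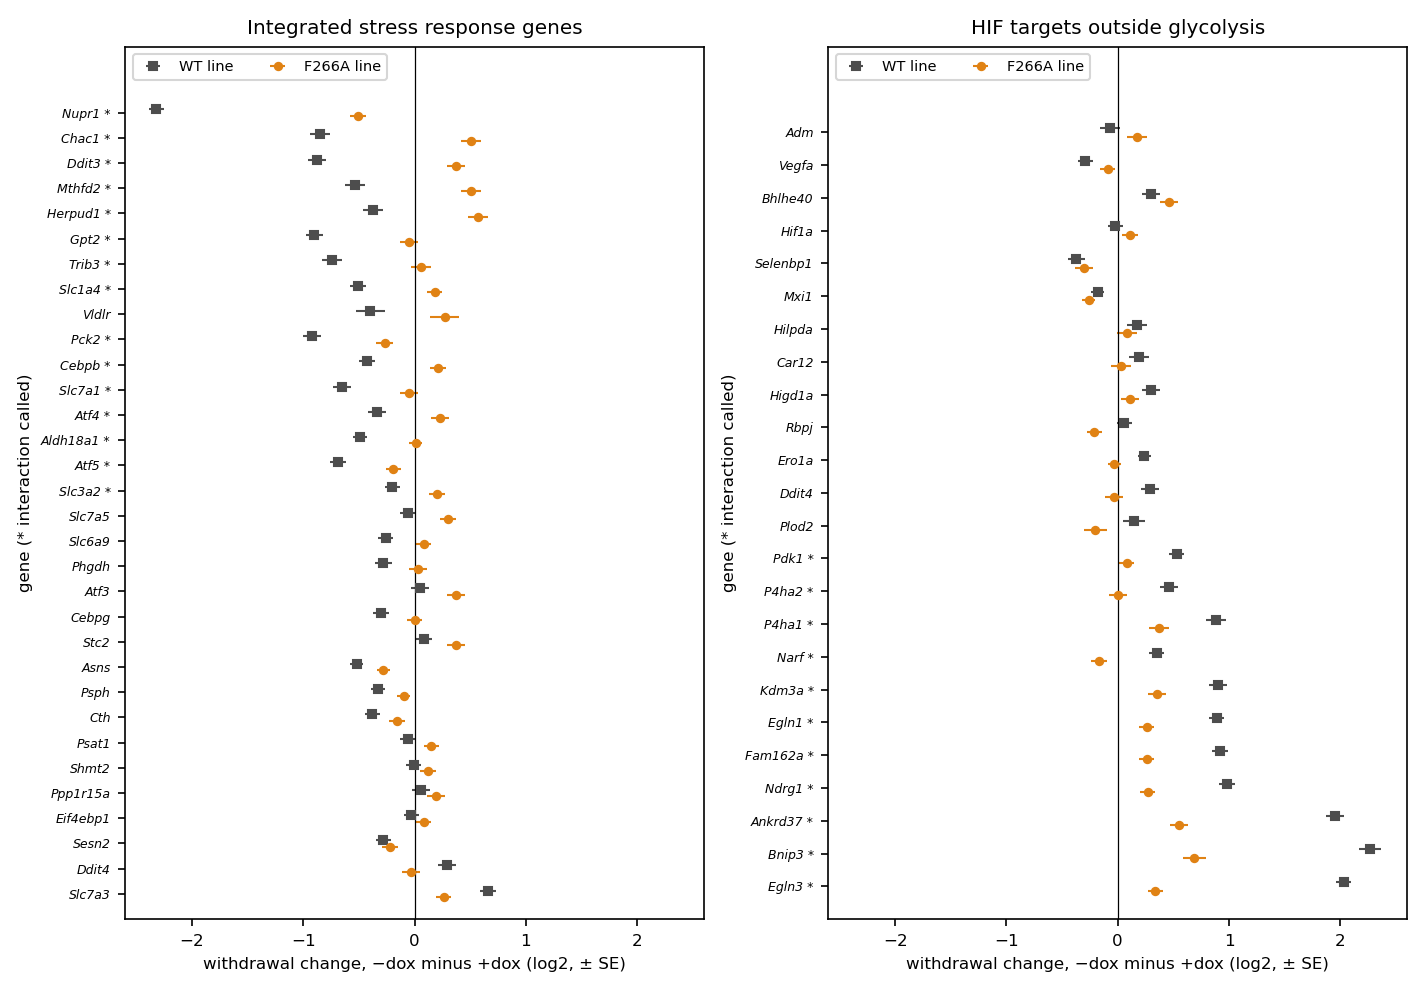
Withdrawal change (x axis, log2, error bars SE of the limma fit, n = 2 against 2) of 32 integrated stress response genes and 24 HIF targets (y axis), WT squares and F266A circles; a star marks a called interaction. Nupr1 is at −2.32 in WT and −0.51 in F266A, and Egln3 at 2.03 and 0.34.

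The letters ACGTG, the core of the hypoxia response element, were likewise searched on both strands of the 250 bases before the start. They stood in 7 of 10 matched called HIF targets (70%), in 8 of 11 matched targets not called (72.7%) and in 25.1% of the 9640 tested genes with an entry. The windows of the 3 leading genes are printed with their matches in capitals. Egln3 (chr12:54203875-54204124, minus strand) holds 1, which begins at position −229 from the start. In Bnip3 (chr7:138909507-138909756, minus strand) 2 overlapping matches on opposite strands begin at positions −108 and −107. Ankrd37 (chr8:45999851-46000100, minus strand) holds 2, at positions −241 and −6. The RefSeq gene reaches to 46000414, so this window precedes a start inside the gene.
Egln3: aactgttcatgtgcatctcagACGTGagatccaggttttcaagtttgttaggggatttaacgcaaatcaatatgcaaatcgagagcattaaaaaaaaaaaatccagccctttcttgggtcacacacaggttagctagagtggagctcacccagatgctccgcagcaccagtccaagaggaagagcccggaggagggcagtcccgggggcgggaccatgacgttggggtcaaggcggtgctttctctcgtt
Bnip3: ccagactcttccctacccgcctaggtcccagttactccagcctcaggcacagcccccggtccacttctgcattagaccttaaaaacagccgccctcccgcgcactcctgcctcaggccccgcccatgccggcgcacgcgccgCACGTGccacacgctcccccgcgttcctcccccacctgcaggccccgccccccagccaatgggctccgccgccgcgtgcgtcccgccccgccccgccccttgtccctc
Ankrd37: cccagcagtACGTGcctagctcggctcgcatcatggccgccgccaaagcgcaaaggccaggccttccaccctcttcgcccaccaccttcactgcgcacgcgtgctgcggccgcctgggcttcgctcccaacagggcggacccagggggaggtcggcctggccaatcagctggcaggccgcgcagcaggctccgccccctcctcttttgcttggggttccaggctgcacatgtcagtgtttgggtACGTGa
HIF binding was not measured.

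Of 23 glycolysis genes, many of them also HIF targets, 6 had a lower interaction and 1 a higher one (median −0.19). Over all genes, 2.94% were called lower and 2.21% higher. On withdrawal, 15 of the 23 rose in WT and 9 in F266A, against 16.1% and 8.94% of all genes. Slc2a1, which encodes the glucose transporter GLUT1, was at 10.53 and 10.44 with and 11.86 and 11.79 without doxycycline in WT, against 11.84 and 11.72 with and 12.09 and 12.30 without it in F266A. Both WT +dox arrays lay more than 1 log2 unit below the rest, and the interaction was −0.93 ± 0.12 (adjusted p = 0.0051). The lactate exporter Slc16a3 moved from 5.13 and 4.98, under the minimum, to 6.55 and 6.52 in WT and from 5.86 and 5.77 to 6.41 and 6.28 in F266A (−0.95 ± 0.11, adjusted p = 0.00312). Leaving out 1 array gave between 2 (without F266A +dox replicate 1) and 6 lower calls. Of the 7 called genes, these alone kept their call without each array in turn. The 58 respiratory chain genes had none called by limma, against 5.15% of all genes, and 4 with an unadjusted p under 0.05 (median 0.05).

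Pluripotency genes leaned below 0. Of 32, 6 had a lower interaction and none a higher one, against 2.94% and 2.21% of all genes. Below 0 lay 27 values, against 6195 of all 11940 (median −0.24, against −0.01 over all genes). In WT 8 rose and 12 fell on withdrawal, against 16.1% and 15.4% of all genes. In F266A 1 rose and 16 fell, against 8.94% and 10.6%. The called genes were Nr0b1, Dppa2, Tet2, Zfp57, Prdm14 and Dppa3, and the first 3 with Prdm14 kept their call without each array in turn. Zfp57 (−0.64 ± 0.12) lost it without any of WT +dox replicate 2, WT −dox replicate 2, F266A +dox replicate 1 and F266A −dox replicate 2 (adjusted p up to 0.0805), and Dppa3 (−0.54 ± 0.11) without any array but WT −dox replicate 2 and F266A −dox replicate 2 (adjusted p up to 0.11). The central factors were not called: the interaction was −0.16 ± 0.11 for Pou5f1, −0.15 ± 0.10 for Nanog, −0.17 ± 0.11 for Sox2 and −0.31 ± 0.09 for Esrrb (adjusted p = 0.0863).

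Nr0b1, a nuclear receptor that restrains differentiation, had log2 levels of 11.05 and 11.15 with and 11.21 and 11.21 without doxycycline in WT, against 10.86 and 10.84 with and 10.35 and 10.20 without it in F266A. Prdm14, which maintains naive pluripotency, was at 9.43 and 9.46, 9.38 and 9.37, 9.14 and 9.18, and 8.55 and 8.47 in the same order. The 5-methylcytosine oxidase Tet2 was at 9.03 and 9.12, 9.25 and 9.18, 9.22 and 9.11, and 8.62 and 8.64. In all 3, F266A −dox was the lowest group, the fall in F266A was called (−0.57 ± 0.07, −0.65 ± 0.06 and −0.54 ± 0.07) and the WT change was not. Interactions were −0.68 ± 0.11, −0.58 ± 0.09 and −0.68 ± 0.10 (adjusted p = 0.00924, 0.00973 and 0.00821). Dppa2, a chromatin regulator of early embryos, had another shape: it rose in WT from 10.94 and 10.99 to 11.58 and 11.65 and stood at 11.30 and 11.28 with doxycycline and 11.30 and 11.21 without it in F266A (−0.68 ± 0.09, adjusted p = 0.00661).

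Primed epiblast genes, which ESCs raise as they leave the naive state, rose on withdrawal in both lines. The rise was called for 15 of 18 in WT and 13 in F266A (median changes 1.0 and 0.77), against 16.1% and 8.94% of all genes. Of these 18, 6 had a lower interaction and 1, Fst, a higher one, against 2.94% and 2.21% of all genes (median −0.23). Between 1 (without F266A +dox replicate 1) and 6 (without F266A −dox replicate 1) lower calls were made with 1 array left out. Leaving out F266A −dox replicate 1 moved the median to −0.36, and leaving out replicate 2 moved it to −0.13. Otx2, a transcription factor of the transition, was at 8.13 and 8.21 with and 9.18 and 9.15 without doxycycline in WT, against 8.72 and 8.56 with and 8.82 and 8.78 without it in F266A (−0.84 ± 0.11, adjusted p = 0.00469). Fgf5, the standard marker, rose in both lines, by 1.89 ± 0.23 from 4.06 and 3.88 in WT and by 2.81 ± 0.23 from 5.31 and 4.86 in F266A, with 2 group means under the minimum. Its interaction of 0.92 ± 0.32 was not called (adjusted p = 0.138).

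DNA methylation enzymes gave all 4 calls among 27 Polycomb and DNA methylation genes, each lower (median of the list −0.08). Over all genes, 2.94% were called lower and 2.21% higher. Dnmt3l, the regulatory partner of the de novo methyltransferases, was at 9.60 and 9.65 with and 11.22 and 11.24 without doxycycline in WT, against 10.36 and 10.27 with and 10.89 and 10.69 without it in F266A. It rose by 1.61 ± 0.08 and by 0.47 ± 0.08 (interaction −1.13 ± 0.11, adjusted p = 0.00144). The de novo enzymes Dnmt3a (−0.85 ± 0.14, adjusted p = 0.0102) and Dnmt3b (−0.77 ± 0.12, adjusted p = 0.0102) lost their call without F266A +dox replicate 1 (−0.80 with adjusted p = 0.0576, and −0.72 with adjusted p = 0.0571). The fourth was Tet2. Of 25 MLL complex members and WDR5 partners, Setd1b alone was called, against 5.15% of all genes (median −0.09).

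Germ layer markers came next, to be read against 2.94% lower and 2.21% higher over all genes. Of 16 ectoderm and neural genes, 3 had a lower interaction and none a higher one (median −0.23), and between 1 and 4 were lower without 1 array, the most without F266A −dox replicate 1. Gbx2, a homeobox gene of the anterior hindbrain that also supports ESC self-renewal, was at 6.09 and 6.14 with and 7.92 and 8.12 without doxycycline in WT, against 7.31 and 7.20 with and 7.63 and 7.42 without it in F266A. It rose by 1.91 ± 0.10 in WT, was not called in F266A (0.27 ± 0.10), and had an interaction of −1.63 ± 0.13 (adjusted p = 0.000714). Nes, the neural progenitor filament, rose in both lines (0.32 ± 0.09 in WT and 0.37 ± 0.09 in F266A; interaction 0.05 ± 0.12, not called).

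Of 10 mesendoderm and mesoderm genes, 3 had a higher interaction and none a lower one (median 0.29), and no call held throughout. They were Mixl1 (0.63 ± 0.15, adjusted p = 0.0436), Eomes (0.49 ± 0.11, adjusted p = 0.0362) and Mesp2 (0.48 ± 0.09, adjusted p = 0.0181), all transcription factors of the primitive streak or its mesoderm. Over all genes, 2.21% were called higher and 2.94% lower. Mixl1 was at 5.73 and 5.76 with and 5.88 and 5.83 without doxycycline in WT, against 5.77 and 5.86 with and 6.38 and 6.73 without it in F266A. Both F266A −dox arrays lay above the other 6. Each call ended without 7 of the 8 arrays, all but F266A −dox replicate 1 for Mixl1 and Mesp2 and all but WT −dox replicate 2 for Eomes. In those 7 fits the interaction lay between 0.45 and 0.67 for Mixl1, 0.46 and 0.50 for Mesp2, and 0.41 and 0.53 for Eomes, with adjusted p up to 0.154, 0.0773 and 0.116. Cdx2, of the trophectoderm and posterior mesoderm (0.38 ± 0.23), Gata6, of the primitive endoderm (−0.14 ± 0.16), and Hand1 (−0.01 ± 0.12) were not called; Cdx2 had 3 and Gata6 4 group means under the minimum.

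Of 27 FGF and ERK targets, 5 had a lower interaction and none a higher one (median −0.10), and between 2 (without WT −dox replicate 2 or F266A +dox replicate 1) and 7 (without F266A −dox replicate 1) were lower without 1 array. Over all genes, 2.94% were called lower and 2.21% higher. Myc, the growth-promoting transcription factor, was at 5.84 and 6.09 with and 8.47 and 8.41 without doxycycline in WT, against 7.88 and 7.67 with and 8.97 and 8.84 without it in F266A. It rose by 2.47 ± 0.10 in WT and by 1.13 ± 0.10 in F266A (−1.35 ± 0.14, adjusted p = 0.00188), and F266A −dox reached the highest level. Egr1, an immediate early gene, rose in WT from 9.58 and 9.76 to 10.18 and 10.35 and fell in F266A from 10.23 and 10.19 to 9.85 and 9.88 (−0.95 ± 0.12, adjusted p = 0.00469). Id3, a BMP target that blocks differentiation factors, was at 6.77 and 6.85 with and 8.74 and 8.64 without doxycycline in WT, against 8.98 and 8.90 with and 9.53 and 9.48 without it in F266A (−1.31 ± 0.10, adjusted p = 0.00056).

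Cyclin D2, encoded by Ccnd2, went from 5.27 and 5.28, under the minimum, to 7.40 and 7.45 in WT and from 6.81 and 6.74 to 7.92 and 7.73 in F266A (−1.10 ± 0.11, adjusted p = 0.00144). The cell cycle inhibitor Cdkn1a, a p53 target, was low only in WT −dox, at 9.08 and 9.09 against 9.68 to 9.89 on the other 6 arrays (0.75 ± 0.11, adjusted p = 0.008). Of 42 mitosis and cell cycle genes, 4 had a lower and 1 a higher interaction (median −0.15), and without 1 array between 1 and 4 were lower, the most without WT +dox replicate 2. Over all genes, 2.94% were called lower and 2.21% higher. Of 35 ribosome biogenesis genes, 33 had values below 0 (median −0.16), against 6195 of all 11940. On withdrawal, 17 of the 35 rose in WT and 6 in F266A, against 16.1% and 8.94% of all genes. Their 2 calls, Pes1 (−0.45 ± 0.11) and Utp20 (−0.41 ± 0.10), both factors of ribosome assembly, ended without 7 arrays (all but F266A −dox replicate 1) and without any of the 8. In those fits the values lay between −0.50 and −0.38 and between −0.47 and −0.35, with adjusted p up to 0.158 and 0.147.

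Spink1, a secreted inhibitor of trypsin, had the second lowest interaction. It was at 6.50 and 6.72 with and 9.05 and 9.20 without doxycycline in WT, against 8.15 and 8.10 with and 8.74 and 8.58 without it in F266A, with no overlap between groups. The rise of 2.52 ± 0.10 in WT and 0.54 ± 0.10 in F266A gave −1.98 ± 0.13 (adjusted p = 0.000215). At the other end, Jdp2, a repressor of AP-1, fell from 9.30 and 9.39 to 7.36 and 7.56 in WT and from 7.87 and 7.83 to 7.32 and 7.34 in F266A (1.36 ± 0.11, adjusted p = 0.000714). Adssl1, an enzyme of AMP synthesis, fell from 7.50 and 7.48 to 5.99 and 5.97 and from 6.26 and 6.17 to 5.93 and 5.86 (1.19 ± 0.09, adjusted p = 0.000652). Without doxycycline the line difference (F266A minus WT) was −0.13 for Jdp2 and −0.09 for Adssl1, neither called.

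Lists with few calls are given by those that held without each array. Over all genes, 2.21% were called higher and 2.94% lower. Stag3, a meiotic cohesin, was 1 of 2 higher among 14 germline genes (0.97 ± 0.11, adjusted p = 0.00303), with WT +dox arrays at 8.49 and 8.47 and the other 6 between 7.35 and 7.75. Gstm2, a glutathione transferase, was 1 of 2 higher among 20 NRF2 and redox genes (0.70 ± 0.10, adjusted p = 0.00672), and its close paralogs may share signal. Slc38a4, an imprinted amino acid transporter, was the higher 1 of 2 called among 23 imprinted genes (0.72 ± 0.12, adjusted p = 0.0133). Rpl22l1, a paralog of a ribosomal protein, was the higher 1 of 3 called among 46 ribosomal protein genes (0.73 ± 0.11, adjusted p = 0.00783). Of 9 Hox genes none was called by limma, and none had an unadjusted p under 0.05.

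**Figure D5:**
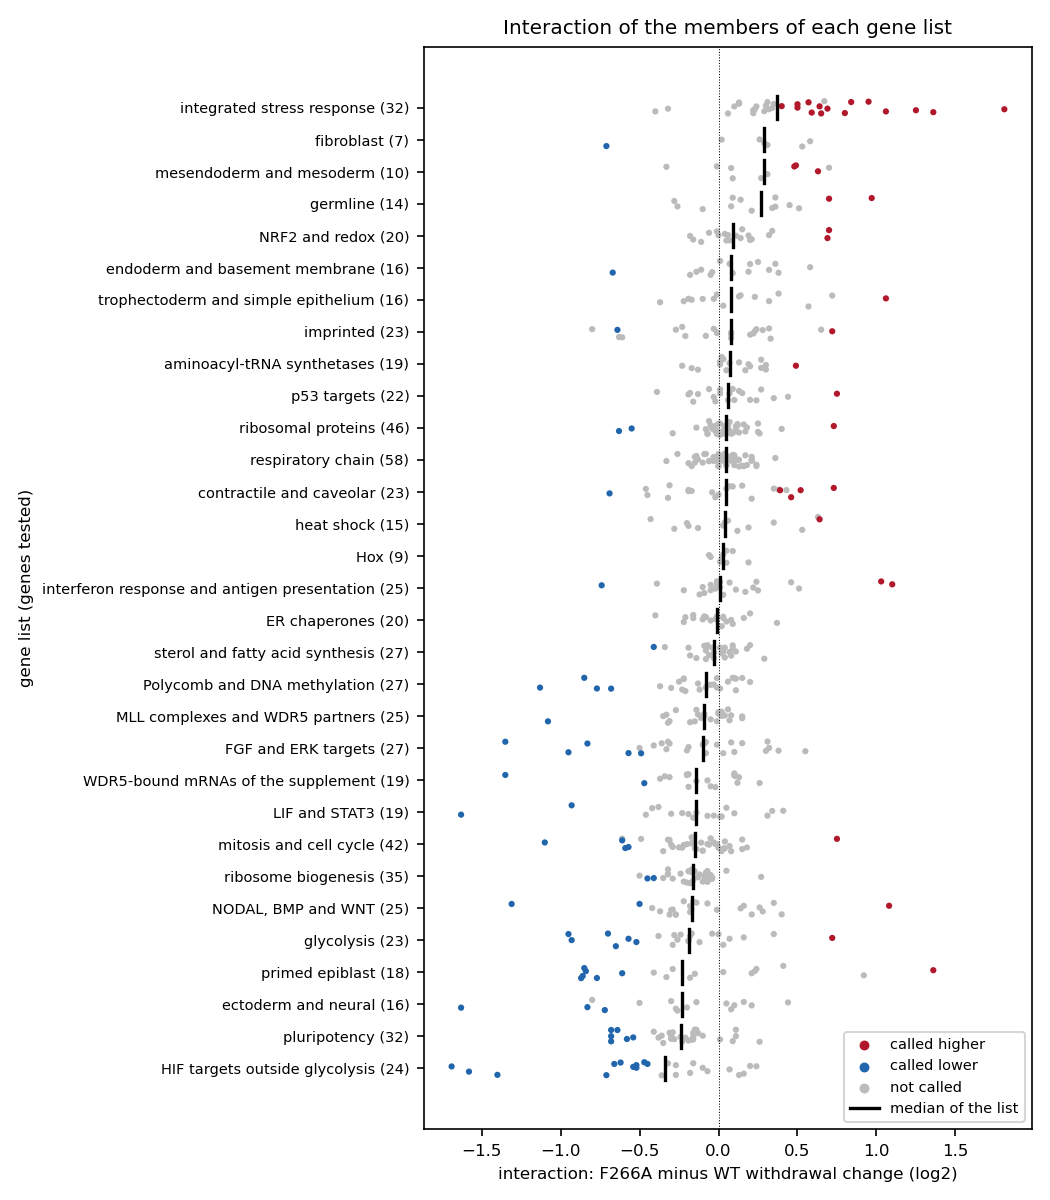
Interaction (x axis, log2) of every tested member of the 31 gene lists (y axis, genes tested in brackets, points spread vertically for visibility), with a black bar for the list median. The integrated stress response has the highest median (0.37) and the HIF targets outside glycolysis the lowest (−0.34).

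Across chromosomes, called genes made up between 3.83% (chromosome 17) and 9.12% (X, 33 of 362) of the tested genes, with 7.96% on chromosome 3. Chromosome medians lay between −0.05 and 0.07, the latter on chromosome 8. Of 213 called genes with several probe sets, 210 had all of them in 1 direction. At least 1 group mean was under the minimum in 87 called genes, where a difference understates or cannot resolve the change. All 4 were over it in 528.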

How the data were processed

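RNA from 8 samples, grouped by their labels (WT or F266A line, with or without doxycycline, 2 each), was hybridised to Affymetrix whole-genome mouse arrays. The authors normalized the arrays by RMA (justRMA; R 2.11.1 per the labels) and deposited log2 levels for 45101 probe sets, which were used without further scaling. The number of arrays limits the precision. Each p-value weighs a difference against a spread that comes only from duplicates of these lines and is partly pooled over genes.

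Of the probe sets, 64 were controls, 34945 had exactly 1 gene symbol, 932 several and 9160 none in the annotation used. Following the study's filter, 20046 of those with 1 symbol were over 50 (linear) on 1 or more arrays, and their mean per gene gave 11940 genes, of which 5061 averaged more than 1 probe set. Array medians lay between 5.36 and 5.39.

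The 4 group means were fitted with limma 3.58.1 (R 4.3.3; lmFit, contrasts.fit, eBayes; 4 residual and 5.32 prior degrees of freedom), with no block. Tests were two-sided, p-values were adjusted by Benjamini-Hochberg across the 11940 genes, and the threshold for a call was an adjusted p under 0.05. The median standard error of the interaction was 0.11, and the median SD between duplicates 0.08. In simulated data, normal noise was drawn independently for each gene and array, and 200 of 11940 genes were changed in F266A −dox only. The fit gave back 39.6% of interactions of 0.5, 87.6% of 1 and 99.2% of 2, and 4.13% of simulated calls were false. Such noise meets the assumptions of the fit, so it cannot show how many calls on the real arrays are false. The study tested with SAM. A SAM-type statistic stands among the alternatives, with other filters, probe rules, scalings, priors, array weights, a replicate block and leaving out each array.

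The 31 gene lists and their members were chosen with earlier results of these data known, and lists overlap. They are described by counts and medians, without a test. Named genes were a set fixed by name, the 12 highest and 12 lowest called interactions of at least 2-fold without overlap between the lines' array differences, up to 3 per pattern of withdrawal calls and up to 5 called members per list. Not all are printed. Akr1b8, Rgcc, Urah, Mcoln3, Ptp4a3 and the uncalled list members Asns, Slc7a3, Vegfa, Adm and Hif1a were named after their values were seen. Chromosomes and promoter windows come from RefSeq tables of GRCm38.p6.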

Additional observations from a re-analysis of the deposited data

Results flagged for a closer look

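The test of the difference between the lines itself called 615 genes. Among named genes, 13 had withdrawal changes called in opposite directions in WT and F266A. Those that rose in WT and fell in F266A were A2m (interaction −2.19), Neurod1 (−1.43), Porcn (−1.39), Egr1 (−0.95), Zfp57 (−0.64) and Rps25 (−0.63). Those that fell in WT and rose in F266A were Dsc2 (1.63), Chac1 (1.36), Ddit3 (1.25), B2m (1.10), Mthfd2 (1.06), Herpud1 (0.95) and Rpl22l1 (0.73). Of these 13, 11 kept the call of the interaction without each array in turn, against 143 of all 615 called genes. Most named genes were chosen for a large interaction, so this count follows in part from the choice and is not separate evidence. Zfp57, an imprint-keeping zinc finger protein, lost it without any of WT +dox replicate 2, WT −dox replicate 2, F266A +dox replicate 1 and F266A −dox replicate 2 (−0.61 to −0.56, adjusted p up to 0.0805). Rps25, a ribosomal protein whose processed copies may share signal, lost it without any of WT +dox replicate 1, WT −dox replicate 2 and either F266A +dox array (−0.64 to −0.59, adjusted p up to 0.0766).

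Probe sets with no symbol or several symbols entered no comparison above. Of 2377 that passed the minimum, 47 had a called interaction, 19 higher and 28 lower. The lowest interactions among them were −2.24 and −1.66, and the highest 2.08 and 1.89.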

How the results depend on the processing

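Of 615 called genes (264 higher, 351 lower), no expression filter gave 290 (131, 159), of which 270 were shared, over 18193 genes tested. A trended and robust prior gave 1110 (445, 665), and the 2-fold threshold left 61 (28, 33). The SAM-type statistic called 0 in the interaction and in either withdrawal. Its unadjusted p was under 0.05 for 247 genes in the interaction, 1417 in the WT withdrawal and 724 in the F266A withdrawal. It added the median standard error to each gene's unmoderated one and took p-values from a t distribution, without permutations. The added term enlarges every p-value, so this is stricter than a plain t test by construction. How much of the difference from limma came from it was not tested. Without 1 array the interaction gave 174 (without F266A +dox replicate 1) to 688 calls, 88 to 293 higher and 75 to 395 lower, and 143 genes, 51 of them among the 61, kept their call throughout. The WT withdrawal gave 2359 to 3910 of 3763 and the F266A withdrawal 1014 to 2267 of 2333, or 1537 without a filter. Deviations of same-numbered arrays from their group means correlated at 0.129 between the WT groups and 0.165 between the F266A groups. Between lines the correlations were −0.176 to −0.111. Whether the numbers mark pairs within a line was not tested. With the number as 1 replicate block across all groups, 451 genes were called (207, 244), 434 of them shared. Other scalings, the probe set with the highest mean, array weights and a minimum of 100 gave 605 to 791 genes, and testing each probe set on its own called 543 of 20046 probe sets. On the linear scale 10 called genes turned sign, among them Cnn1 (30), Lrp2 (47), Lrrc31 (22), Nefm (29), Pim2 (256) and Vim (18). No named gene reversed under any other alternative. Of list medians, that of the contractile and caveolar genes ranged from −0.13 to 0.16 when 1 array was left out.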
